A study of Mus musculus with 25 samples.

Results

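The ribosomal protein genes were followed through 25 RNA-seq libraries of mouse macrophages. The set holds every gene of the count files whose symbol is built as Rpl or Rps (or Rplp for the acidic stalk proteins) plus a number and at most a short ending, which took 83 of 24411 genes, 51 of the large (60S) and 32 of the small (40S) subunit. The rule names symbols alone and no measured value, though it was set with earlier results of these data known. Bone marrow-derived macrophages (BMDMs) came from C57BL/6 mice and were grown for 4 days with M-CSF at 25 ng/ml, and 7 groups of 3 libraries were made from them. One group was left untreated and is labelled as cultured for 4 h (control). Others received IFN-γ at 100 U/ml with LPS at 100 ng/ml for 1, 4, 12 or 24 h, a classical (M1) stimulus. Further groups received IL-4 or IL-13, each at 10 ng/ml for 12 h, which are alternative (M2) stimuli. RAW264.7 cells, a macrophage line derived from a Balb/c tumor induced by Abelson murine leukemia virus, formed 2 groups of 2 libraries, untreated or given LPS alone at 100 ng/ml, both for 4 h. The control BMDMs thus share their culture time with none of the 12 h and 24 h groups, and a longer culture cannot be told apart from the stimulus there.

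A ribosome is assembled from ribosomal RNA and about one copy of each ribosomal protein, so that cells keep the supply of these proteins balanced. In mammals the mRNAs of nearly all of them start with a short run of pyrimidines, the 5′ terminal oligopyrimidine (TOP) tract, through which mTOR signaling and the RNA-binding protein LARP1 set how actively they are translated and how long they last. Most of the genes exist once with introns and are accompanied in the genome by many processed pseudogenes, intronless copies that resemble the mRNA. Some have a second functional version, a paralog such as Rpl22l1 for Rpl22, that can take the place of the first protein. In macrophages, the set is of interest because stimulation with IFN-γ and LPS redirects protein synthesis, and because single members such as Rpl13a and Rps3 have been given roles in inflammatory gene control.

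Values are counts of uniquely mapped read pairs on the sense strand, and a level is given as counts per 1000000 (CPM) of all sense counts after the ribosomal RNA precursor Rn45s was removed. Rn45s took 20.1 to 39.8% of the sense counts, and 1502618 to 2532496 counts per library were left. Of the 83 members, 76 had enough counts to be tested in the time course and 75 in all 12 comparisons, since Rps4l was too low in the IL-4 and IL-13 comparisons and in that of LPS in RAW264.7 cells. The other 7 were tested in none. Rpl3l, Rpl10l and Rpl39l, paralogs known mainly from muscle or testis, had 3, 0 and 83 counts over all 25 libraries. The remaining 4 are standard ribosomal genes: Rpl26 had 0, Rpl30 had 9, Rpl34 had 65 and Rps27 had 78 counts in total. A read that fits several places is not counted, and 74 members share a stretch of 100 bases with an annotated transcript of another gene. The rest of the genome was not searched, and Rps4l had no transcript to search. The median shared part of the transcript was 28.0% over the tested and 5.79% over the untested members. How much of each gene's RNA was lost this way was not tested. Levels of different members are therefore only loosely comparable.

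Per kilobase of annotated exon, the highest levels in control BMDMs belonged to Rplp1 at 1633 CPM per kb and Rplp0 at 663 CPM per kb, both proteins of the stalk that recruits translation factors. Rps29 with 589 and Rpl19 with 522 CPM per kb came next. The lowest tested members were Rps15a with 2.42, Rps4l with 4.17 and Rpl22l1 with 10.3 CPM per kb.

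The mRNA start was examined because it carries the TOP tract. A RefSeq promoter (build GRCm38.p6, 250 bases before to 50 bases from the annotated start) was found for 62 of the 83 members. The following 30 bases begin 20 bases before the annotated start, in the direction of the gene, and are shown for members that moved apart from the rest of the set or stand for it. Capitals mark the longest unbroken run of C and T that touches the 10 bases on either side of the start. The run of Rpl22l1 is 10 bases long, and its last base lies beyond the printed window.
Rpl24: taggaagaaagCTgttgctaggaaacagac
Rps24: acgcccccgcgctggggTCCTTCCTTgcgc
Rps27l: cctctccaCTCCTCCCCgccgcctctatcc
Rpl10a: gcgtggtggcgCCCCCCCagcggccgcaaa
Rpl28: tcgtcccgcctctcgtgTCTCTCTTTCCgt
Rps16: taaagcccgCTTCTgtcgtgacgtagcact
Rpl22l1: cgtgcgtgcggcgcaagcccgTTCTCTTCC

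These windows lie at chr16:55966255-55966284 (Rpl24), chr14:24490658-24490687 (Rps24), chr9:66946066-66946095 (Rps27l), chr17:28328451-28328480 (Rpl10a), chr7:4792945-4792974 (Rpl28), chr7:28350669-28350698 (Rps16) and chr3:28805488-28805517 (Rpl22l1), all on the plus strand. Each spans the annotated transcription start. Rps24, Rps27l and Rpl10a have 2 annotated starts, of which the first listed was taken. A run of at least 8 pyrimidines was present in 27 of the 62 members (43.5%), beside 14.0% of all 32851 RefSeq promoters. Each member was taken at the first start listed, whereas all promoters include every annotated start. A run found this way can end before the annotated start, outside the mRNA, as those marked in Rps27l, Rpl10a and Rps16 do. The search is therefore no count of TOP tracts. On the opposite strand the same search found 3 members (4.84%) and 15.6% of all promoters. Rpl28 had the longest run among those printed, 11 bases, and the longest of any member was 21 bases. Rpl24 had no run beyond 2 bases at its annotated start, nor had Rpl7l1, Rps3, Rps13 and Rps3a1. The letters CCGGAAG, the core that ETS family factors such as GABP bind, were found on either strand in 38.7% of the member promoters and 8.86% of all promoters. In the same search TTCCGGTT, whose first letters overlap the reverse of that core, was found in 6.45% and 1.15%, and the pyrimidine-rich CTTTCC in 46.8% and 26.6%, and CTTTTCC in 16.1% and 8.06%. A match in these windows is a match of letters and no measure of binding.

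As a share of the counts without Rn45s, the summed level of the 83 genes was lower from 4 h of the IFN-γ-primed LPS course on, was higher after IL-4 and IL-13, and reached 2.12 times the BMDM level in RAW264.7 cells. In control BMDMs the genes took 2.57, 2.37 and 2.41% of the counts, and after 1 h 2.49, 2.47 and 2.38%. After 4 h they took 2.30, 2.20 and 2.1%, after 12 h 2.02, 1.96 and 1.74%, and after 24 h 2.07, 2.31 and 2.24%. The libraries at 4, 12 and 24 h all lay below every control, and those at 1 h overlapped with it. The mean at 12 h was 0.778 times the control mean, and at 24 h it stood at 0.900 times. With IL-4 the share was 2.93, 2.87 and 2.97%, and with IL-13 3.0, 2.91 and 2.66%, all above the 3 controls, at ratios of 1.19 and 1.17. Untreated RAW264.7 libraries had 5.21 and 5.16%, and those with LPS 5.36 and 5.17%, which overlap. The subunits were also summed apart. The 60S genes took 1.51 ± 0.0654% in control and 1.15 ± 0.0930% at 12 h, and the 40S genes 0.941 ± 0.0399% and 0.754 ± 0.0578% (SD, n = 3). In bulk RNA a smaller share can come from fewer cells of a type or from less of these mRNAs per cell, and these cannot be told apart. A share also moves with the other genes in the total. When the 50 most counted genes were left out of each total, the ratios to control became 0.929 at 1 h, where every library (3.62 to 3.84%) then lay below every control (3.9 to 4.2%), 0.847 at 4 h, 0.713 at 12 h and 0.859 at 24 h. They became 1.15 with IL-4 and 1.09 with IL-13, where the libraries (4.11 to 4.62%) then overlapped with control, and 1.8 for RAW264.7 cells against BMDMs. With Rn45s kept in the total, the 24 h mean of 1.57% and the 1 h mean of 1.69% were not below the control mean of 1.55%, whereas those at 4 h (1.48%) and 12 h (1.35%) still were. The 4 h libraries (1.39 to 1.60%) then overlapped with the controls (1.49 to 1.62%), and the 12 h libraries (1.32 to 1.37%) did not. The 5 markers of dividing cells moved as well, with sums of 86.7 to 115 CPM in control, 204 to 237 CPM at 1 h and 111 to 129 CPM at 4 h. They summed to 35.6 to 68.5 CPM at 12 h, 42.3 to 55.2 CPM at 24 h and 61.5 to 79.7 CPM with IL-4 or IL-13. The 8 macrophage markers in the files, none of them at 0 in any BMDM group, summed to 24922 to 26771 CPM in control, 18390 to 19358 CPM at 1 h, 16052 to 16995 CPM at 4 h, 17289 to 19437 CPM at 12 h and 27325 to 30855 CPM at 24 h, and to 20946 to 24264 CPM with IL-4 or IL-13. The part of either list in the shares was not tested.

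**Figure D1:**
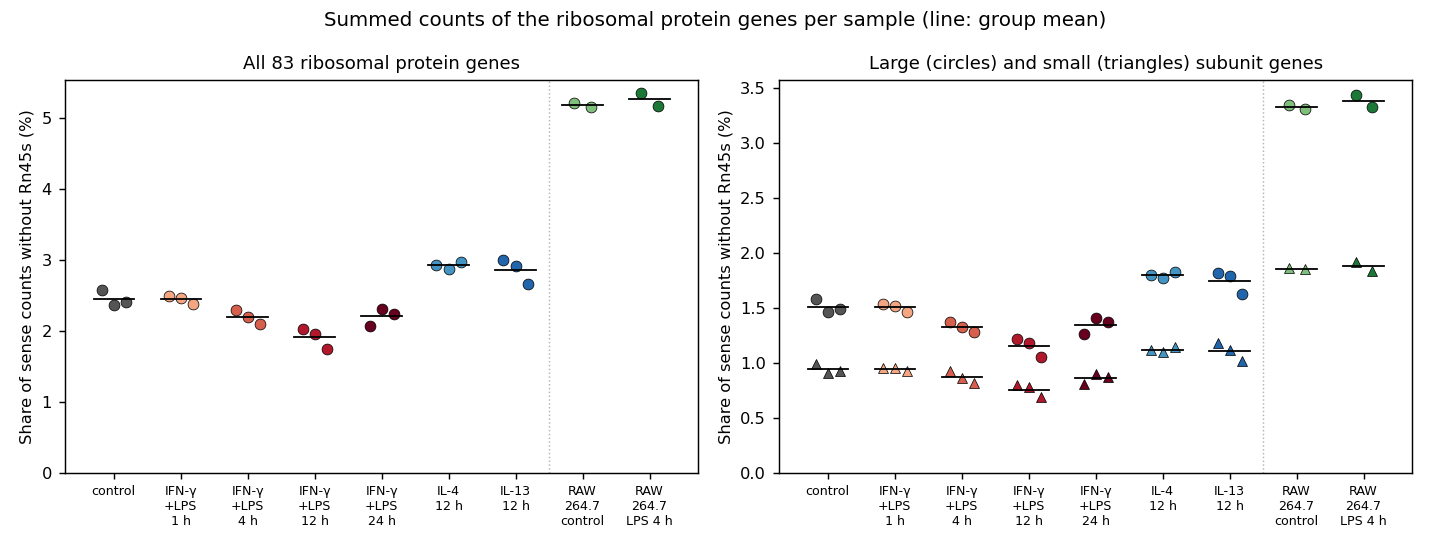
Share of the sense counts without Rn45s (%, linear axis from 0) taken by all 83 ribosomal protein genes (left) and by the large and small subunit genes (right), with 1 point per library and a line at the group mean. The 12 h IFN-γ-primed LPS libraries are the lowest at 1.74 to 2.02%, the IL-4 and IL-13 libraries are above all other BMDMs at 2.66 to 3.0%, and the RAW264.7 libraries lie at 5.16 to 5.36%.

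Which direction single members took depended on what they were measured against, and both readings are given. Each comparison was fitted in edgeR (quasi-likelihood) over all expressed genes and called at an FDR ≤ 0.01 by Benjamini-Hochberg, without a fold limit. Its usual scale, TMM normalization, sets the typical expressed gene to no change, whereas the library-total scale leaves CPM as they are. The medians of all genes tested differed little from 0 on the TMM scale (−0.07 to 0.02 on the log2 scale against control). For library totals these medians were −0.22 (1 h), −0.61 (4 h), −0.34 (12 h) and −0.20 (24 h). At 4 h the median of the ribosomal protein genes on library totals was −0.18, below 0 but above that of all genes. All comparisons of the course share the control or another time point, so their values are set side by side and were not tested for overlap. No member passed the fold limit of 1.5 on the log2 scale that the study used for the course, which 7.12, 22.8, 17.3 and 14.9% of all genes passed at 1, 4, 12 and 24 h against control, and 14.0, 9.66 and 1.29% from 1 to 4 h, 4 to 12 h and 12 to 24 h.

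After 1 h, 10 of 76 members were higher than control and none was lower on the TMM scale (median log2 change of the members 0.18), when 14.7% of all genes tested were called higher and 11.3% lower. By edgeR 31 members were higher and 0 lower at an unadjusted p under 0.05, and DESeq2 called 11 higher and 0 lower (13.4% and 7.62% of all genes). On library totals 0 were higher and 1 lower, with a median of −0.01, beside 10.6% and 19.3% of all genes. The 10 included Rps27l, Rpl35a, Rps24, Rps20 and the stalk gene Rplp0. Without control replicate 1, 2 or 3 the number called higher was 6, 6 or 5, and without the first 1 h replicate it was 6. Compared in CPM, 11 members had every 1 h library above every control and 7 had every one below, beside 16.4% and 36.1% of all genes.

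After 4 h, 49 members were higher on the TMM scale and 0 lower, 27 of the 45 tested large-subunit and 22 of the 31 small-subunit genes. Of all genes 26.0% were called higher and 25.6% lower. At an unadjusted p under 0.05 the counts were 59 and 0, and DESeq2 called 50 higher and 0 lower (25.0% and 21% of all genes). With a filter of 10 counts in every sample, 22 of 75 members were higher, beside 1683 of 6458 genes. That is close to the share of all genes. On library totals the direction turned for the set: 2 members, Rpl24 and Rps24, were higher and 19 lower, beside 15.5% and 48.5% of all genes, and the member median was −0.18 in place of 0.36. In CPM, 36 members lay below all controls and 4 above, beside 56.6% and 17.9% of all genes. The stalk genes show both readings. Rplp0 had 1131, 1086 and 1085 CPM in control and 1171, 1063 and 1030 CPM at 4 h, so the libraries overlapped, and its change was 0.51 (SE 0.0824, adjusted p = 6.95e-07) on the TMM scale but −0.02 (adjusted p = 0.815) on library totals. Rplp1 changed by 0.44 and Rplp2 by 0.39 on the TMM scale, and by −0.09 and −0.14 on totals. From 1 h to 4 h, 12 members were higher and 0 lower on the TMM scale (29 and 0 at an unadjusted p under 0.05, 13 and 0 by DESeq2), beside 19.8% and 19.1% of all genes by edgeR and 18.5% and 15.7% by DESeq2. On totals 1 was higher and 10 were lower, beside 12.8% and 34.6%, and in CPM 1 lay above all 1 h libraries and 33 below, beside 16.4% and 46.7%. Without the first 4 h replicate 5 members were called higher.

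From 4 h to 12 h members were lower, and none was higher, on both scales. On the TMM scale 58 of 76 members were lower and 0 higher, 33 of the 45 large-subunit and 25 of the 31 small-subunit genes, when 19.2% of all genes were lower and 16.7% higher. The median change of the members was −0.44 and that of all genes 0.02. Unadjusted p-values under 0.05 counted 67 lower and 0 higher, and DESeq2 called 57 lower and 0 higher (17.6% and 13.1% of all genes). On library totals 19 members were lower and 0 higher, beside 13.3% and 25.4% of all genes, with a median of −0.22 where the median of all genes was 0.24. In CPM, 38 members had every 12 h library below every 4 h library and 2 above, beside 18.1% and 36.4% of all genes. With any single library left out, 46 to 58 members were called lower.
The largest falls were in Rps16 and Rps28, both of the small subunit. Rps16 had 339, 259 and 276 CPM at 4 h and 191, 204 and 196 CPM at 12 h, without overlap, a change of −0.78 (SE 0.0958, adjusted p = 2.39e-09) or −0.56 on totals. Rps28 had 205, 177 and 161 CPM at 4 h and 124, 138 and 110 CPM at 12 h. Here too no library overlapped, and the change was −0.77 (adjusted p = 4.97e-08) or −0.55 on totals. Rps19, whose human counterpart is mutated in Diamond-Blackfan anemia, changed by −0.63 (adjusted p = 3.68e-07), from 353, 297 and 292 CPM to 263, 241 and 207 CPM.

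**Figure D2:**
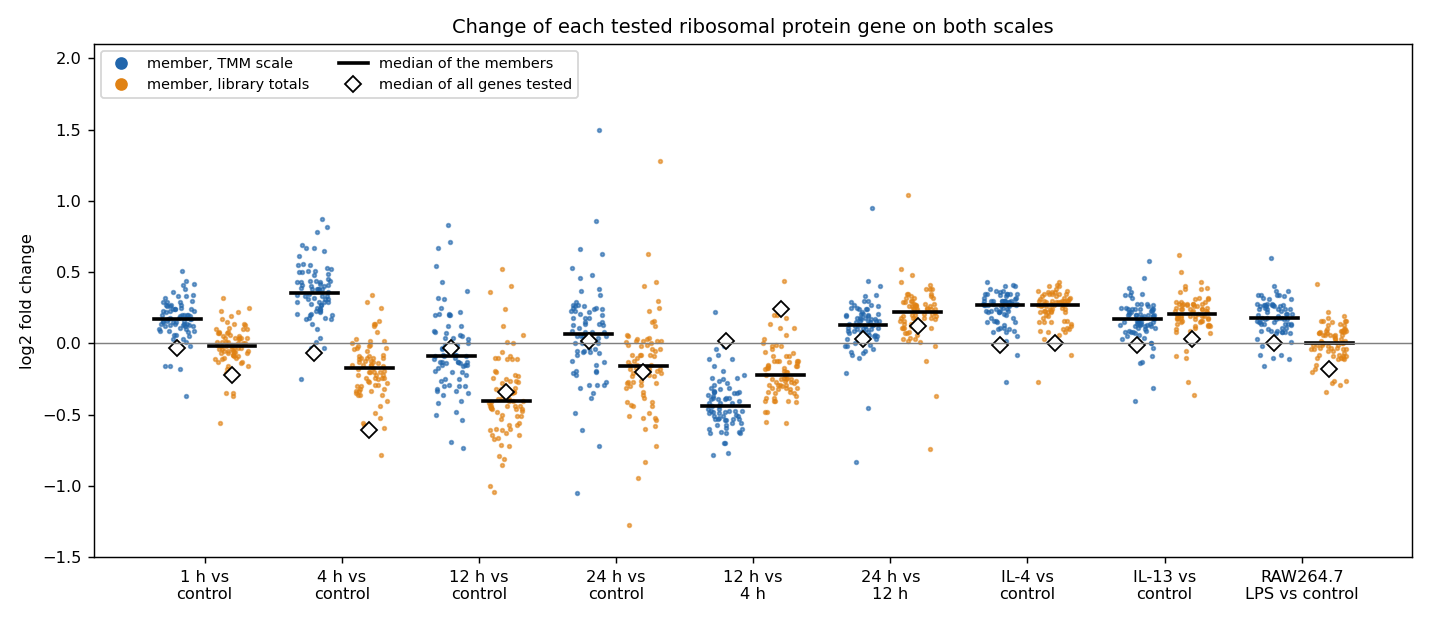
The log2 fold change (y axis) of each tested ribosomal protein gene (points) in the comparisons named on the x axis, on the TMM scale (blue) and on library totals (orange), with black bars at the median of the members and white diamonds at the median of all genes tested. At 4 h against control the member median is 0.36 on the TMM scale and −0.18 on library totals, whereas for 12 h against 4 h it is below 0 on both (−0.44 and −0.22) and for IL-4 above 0 on both.

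At 12 h against control, 7 members were higher and 14 lower on the TMM scale (median −0.09), below the 23.9% and 23.4% of all genes that were called. On library totals 2 were higher and 50 lower, beside 16.1% and 35.6% of all genes, and in CPM 58 members lay below every control and 3 above, beside 45.4% and 20% of all genes. By group mean CPM, 12 h was the lowest of the 7 BMDM groups for 62 of the 76 members. This ranking covers the members alone, and the median of all genes at 12 h was −0.34 on totals. The TMM counts rested partly on single libraries: without control replicate 3 or the first 12 h replicate 4 members were higher, and without control replicate 1 or the third 12 h replicate 7 and 6 were lower. At 24 h, 11 members were higher and 7 lower on the TMM scale (median 0.07; 23.9% and 21.3% of all genes), and 4 higher and 22 lower on totals (16.9% and 30.1%). In CPM, 34 lay below all controls and 6 above, beside 39.4% and 22.8% of all genes. Without control replicate 2 or 3, or the third 24 h replicate, 7 were higher, and without control replicate 1 4 were lower. From 12 h to 24 h, 2 members were higher and 1 lower on the TMM scale (5.31% and 8.90% of all genes), and 12 higher and 0 lower on totals (7.87% and 7.21%), with 36 members above all 12 h libraries in CPM and 1 below, beside 22.7% and 13.4% of all genes. The higher members were Rps19, from 263, 241 and 207 to 326, 361 and 334 CPM (log2 change 0.44, adjusted p = 0.000324), and Rpl13a, from 234, 243 and 171 to 297, 335 and 272 CPM (0.40, adjusted p = 0.003). Without the third 12 h or the second 24 h replicate 1 member was higher, without the first 24 h replicate 4 members were higher, and without any one of the 6 libraries no member was lower. DESeq2 called 1 higher and 0 lower here, beside 3.02% and 8.74% of all genes, and at an unadjusted p under 0.05 edgeR counted 21 higher and 1 lower.

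**Figure D3:**
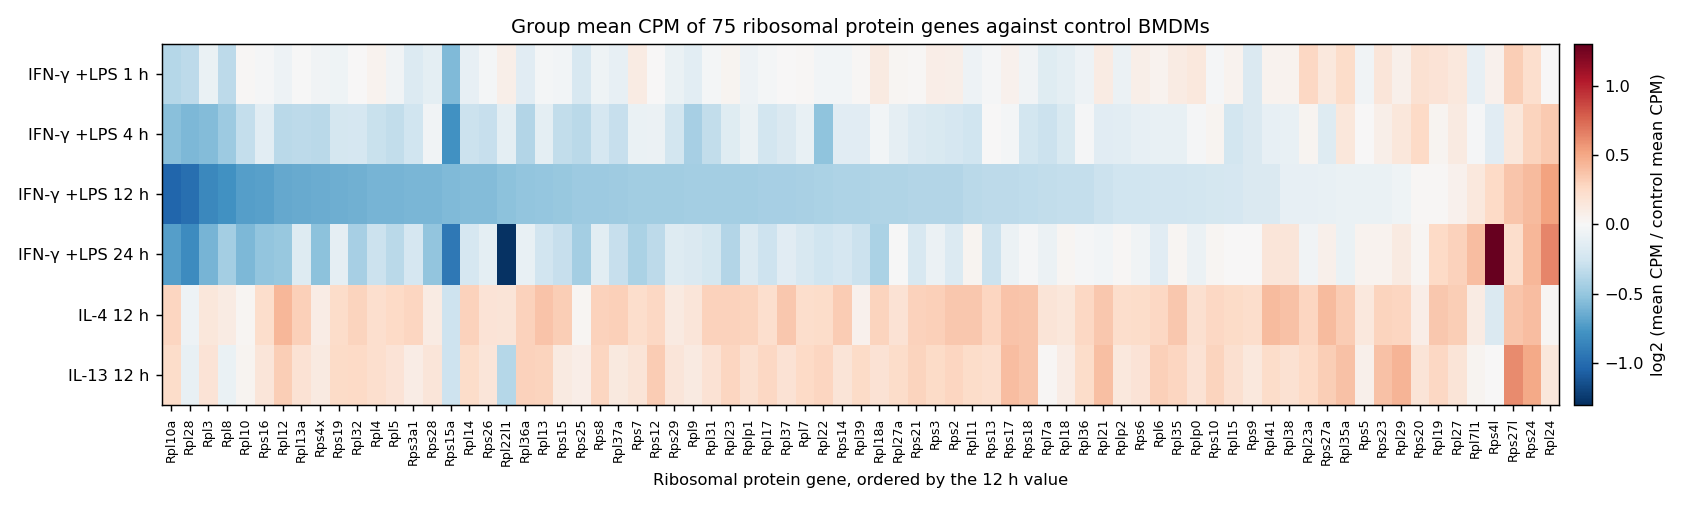
Group mean CPM of 75 of the 76 tested ribosomal protein genes (x axis, ordered by the 12 h value) in the 6 stimulated BMDM groups (y axis), colored by the log2 ratio to the control mean. The 12 h row is below control for most genes, with Rpl24 and Rps24 among the few at its upper end, and the IL-4 and IL-13 rows are above control for most.

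Within the set some members moved apart from the others. To measure this without the library total, the test was repeated with totals and normalization taken from the ribosomal protein genes alone, a choice made after seeing the data. Against control this called 0 members at 1 h, 4 higher and 3 lower at 4 h, 7 and 6 at 12 h, and 8 and 9 at 24 h. Of all genes this scale called 10.7% higher and 16.6% lower at 1 h, 17.9% and 38.7% at 4 h, 25.4% and 20.4% at 12 h, and 21.1% and 22.2% at 24 h. From 1 to 4 h it called 1 member higher and 1 lower (14.8% and 25.7% of all genes), from 4 to 12 h 2 and 2 (35.4% and 9.32%), and from 12 to 24 h 0 and 1 (2.68% and 11.9%). Rpl24 and Rps24 were higher than the rest of the set at all 3 later times, and Rpl3, Rpl10a and Rpl28 were lower at all 3. These calls describe a departure from the other members, whereas the set itself moved in CPM as given above.

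Rpl24, a large-subunit protein that reaches across to the small subunit, had 222, 207 and 218 CPM in control and 223, 237 and 186 CPM at 1 h. It rose to 268, 279 and 271 CPM at 4 h, 317, 295 and 314 CPM at 12 h and 287, 365 and 350 CPM at 24 h. Every library from 4 h on was above every control. The log2 change was 0.87 (SE 0.103, adjusted p = 4.34e-10) at 4 h, 0.83 (SE 0.101) at 12 h and 0.86 (SE 0.1) at 24 h on the TMM scale, and 0.34, 0.52 and 0.63 on library totals, each past the threshold. Of 1000 counts of the set, Rpl24 took 8.80 ± 0.198 in control and 16.3 ± 1.60 at 12 h. Its annotated start has no long pyrimidine run (above). Stretches shared with transcripts of other genes cover 80.1% of its transcript, and where its counted reads lie was not tested.

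Rps24, a small-subunit protein also linked to Diamond-Blackfan anemia, had 486, 496 and 490 CPM in control, 616, 625 and 566 CPM at 4 h and 674, 682 and 600 CPM at 12 h. At 24 h the libraries had 600, 757 and 632 CPM, and none of these overlapped with control. Its change was 0.82 (SE 0.0905, adjusted p = 5.68e-11) at 4 h, 0.71 at 12 h and 0.66 at 24 h, or 0.29, 0.40 and 0.43 on totals. Rps20, a small-subunit protein at the head of the subunit, was higher at 4 h by 0.78 (adjusted p = 5.60e-10), yet its 4 h CPM of 329, 283 and 269 stood close above the control values of 257, 240 and 239, and on totals the change of 0.25 had an adjusted p of 0.0146.

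Rpl10a, which forms the mobile L1 stalk, had 165, 130 and 152 CPM in control and 115, 115 and 116 CPM already at 1 h. It had 117, 88.0 and 101 CPM at 4 h, 75.6, 80.5 and 62.1 CPM at 12 h and 91.6, 90.1 and 90.4 CPM at 24 h. All stimulated libraries of the course lay below all controls. At 12 h the change was −0.73 (SE 0.117, adjusted p = 5e-07) and −1.04 on totals, and at 24 h −0.49 and −0.72. Rpl3, which lies next to the peptidyl transferase center, fell from 731, 663 and 674 CPM to 376, 411 and 368 CPM at 12 h, without overlap, a change of −0.54 (SE 0.0851, adjusted p = 4.9e-07) or −0.85 on totals. Rpl28, another large-subunit protein, had 191, 161 and 217 CPM in control and 100, 112 and 75.1 CPM at 12 h, a change of −0.69 (SE 0.141, adjusted p = 0.000107) or −1.0 on totals. Here too no 12 h library overlapped with the controls.

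**Figure D4:**
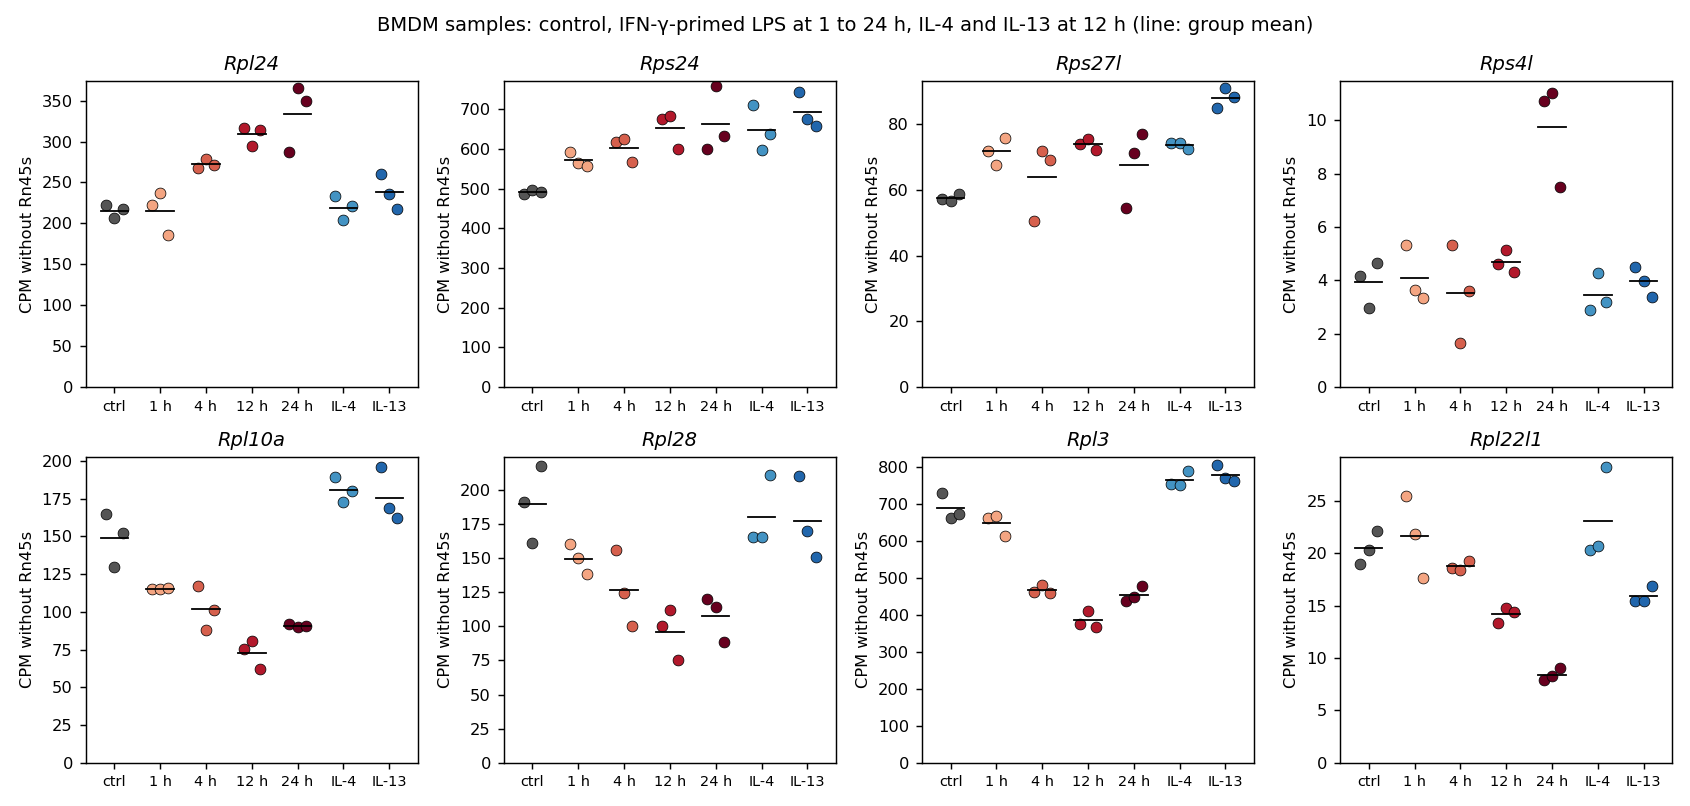
CPM without Rn45s (linear axes from 0) of 8 ribosomal protein genes in each BMDM library (points) with the group mean (line). Rpl24 and Rps24 are above control from 4 h on, Rpl10a, Rpl28 and Rpl3 are lowest at 12 h, and Rps4l and Rpl22l1 stand apart at 24 h, at 7.50 to 11 and 7.91 to 9.08 CPM.

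Members with described roles outside the ribosome were examined one by one. Rpl5 and Rpl11 join the 5S ribosomal RNA and bind the p53 regulator Mdm2. Rpl5 had 514, 500 and 517 CPM in control and 356, 356 and 296 CPM at 12 h (−0.30, adjusted p = 0.00762), and Rpl11 had 401, 374 and 377 CPM and 320, 304 and 282 CPM (−0.04, adjusted p = 0.731). Neither gene overlapped between the groups in CPM, and on totals both passed, at −0.61 and −0.35. Rpl13a, described as part of a complex that silences inflammatory mRNAs after IFN-γ, had 353, 330 and 335 CPM in control and 234, 243 and 171 CPM at 12 h, a change of −0.35 (adjusted p = 0.00390) or −0.66 on totals. Rps3, described as a partner of NF-κB, changed by 0.33 at 4 h (adjusted p = 0.00122) on the TMM scale and by −0.20 on totals. Rps6, the substrate of S6 kinase, changed by 0.42 and −0.11 on these scales at 4 h. Rps27a, made as a fusion with ubiquitin, was called in no comparison of the course, with 0.36, 0.20 and 0.29 for 4, 12 and 24 h against control (adjusted p = 0.0324, 0.245 and 0.0732).

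The paralogs took their own course. Rpl22l1 had 19.0, 20.3 and 22.1 CPM in control, 13.3, 14.8 and 14.4 CPM at 12 h and 7.91, 8.28 and 9.08 CPM at 24 h. The 24 h libraries lay below all others of the BMDMs, and the change against control was −1.05 (SE 0.229, adjusted p = 0.000117) or −1.27 on totals. Its partner Rpl22 had 197, 182 and 178 CPM in control and 134, 165 and 165 CPM at 24 h. Per 100 counts of Rpl22 there were 11.1 ± 1.41 of Rpl22l1 in control and 5.48 ± 0.448 at 24 h (SD, n = 3). Against 12 h, Rpl22l1 was lower at 24 h by −0.83 (adjusted p = 0.00891) on the TMM scale, a call that was lost without any one of the libraries and on totals (−0.74, adjusted p = 0.0197). Rpl7l1, a relative of Rpl7, went the other way, from 98.7, 99.5 and 94.3 CPM in control to 116, 135 and 136 CPM at 24 h (0.63, SE 0.113, adjusted p = 5.37e-06, and 0.40 on totals). Per 100 counts of Rpl7 it had 17.4 ± 0.582 in control and 26.6 ± 1.67 at 24 h. Rps4l was near the detection limit, with 3 to 24 counts per BMDM library. It had 4.16, 2.98 and 4.66 CPM in control and 10.7, 11 and 7.50 CPM at 24 h, with every 24 h library above every control (1.5, SE 0.356, adjusted p = 0.000357, and 1.28 on totals). Rps27l, the paralog of Rps27 and a p53 target, had 57.1, 56.6 and 58.8 CPM in control and 74.1, 75.4 and 72.2 CPM at 12 h, without overlap. Its change of 0.67 (adjusted p = 6.36e-05) on the TMM scale was 0.36 (adjusted p = 0.0237) on totals. Rps27 itself was too low to set beside it.

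With IL-4 and IL-13 a minority of the members was higher on both scales, each by a small step. With IL-4, 15 of 75 members were higher than control and 0 lower, when 4.38% of all genes were higher and 3.25% lower. The median change of the members was 0.27, and that of all genes −0.01. Unadjusted p-values under 0.05 counted 53 higher and 0 lower, DESeq2 called 12 and 0 (3.26% and 1.87% of all genes), and library totals gave 14 and 0 (4.36% and 3.08%). In CPM, 57 members had every IL-4 library above every control and none below, beside 15.6% and 14.2% of all genes. With IL-13, 8 members were higher and 0 lower (5.61% and 4.49% of all genes; median 0.17), with 32 and 0 at an unadjusted p under 0.05, 8 and 0 by DESeq2 (4.31% and 2.72% of all genes) and 10 and 0 on totals (6.51% and 3.79%). In CPM 37 were above and 2 below all controls, beside 17.2% and 13% of all genes. No member passed the study's fold limit of 0.7 on the log2 scale, which 3.86% of all genes passed with IL-4, 5.36% with IL-13 and 0.0649% between both. Scaled on the set itself no member was called with either cytokine, when 1.95% of all genes were higher and 10.0% lower with IL-4, and 3.02% and 8.14% with IL-13.

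The number of calls depended on single libraries. With IL-4 it was 2 without control replicate 2 or IL-4 replicate 3, 6 without control replicate 3, and 8 or 9 without IL-4 replicate 1 or 2. With IL-13 it was 5, 4 or 3 without control replicate 1, 2 or 3, 5 without IL-13 replicate 2 and 15 without IL-13 replicate 3. Libraries of these groups and of the 24 h group also had fewer counts on the antisense strand of the set, 0.0819 to 0.133% with IL-4, 0.0931 to 0.104% with IL-13 and 0.109 to 0.131% at 24 h, beside 0.293 to 0.346% in control and 0.261 to 0.492% at 1 to 12 h. The antisense percentage of Rn45s, which is outside the set, split the libraries the same way. It was 0.00996 to 0.0214% with IL-4, 0.00603 to 0.0117% with IL-13 and 0.0104 to 0.0162% at 24 h. In control it was 0.0386 to 0.0543%, and at 1 to 12 h 0.0456 to 0.122%. The difference was thus not confined to the set, and it cannot be told apart from the stimulus. The part of this difference in the results was not tested.

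With IL-4 the largest changes were in Rpl12, at the base of the stalk, and in the very short Rpl41. Rpl12 had 325, 263 and 268 CPM in control and 366, 374 and 415 CPM with IL-4, without overlap (0.43, SE 0.0936, adjusted p = 0.000710). Rpl41 had 444, 362 and 402 CPM and then 521, 538 and 553 CPM (0.41, SE 0.0875, adjusted p = 0.000458), again without overlap. With IL-13 Rps27l was the most changed, at 84.8, 91.1 and 88.4 CPM, above all controls (0.58, SE 0.124, adjusted p = 0.000421, and 0.62 on totals). Rps24 was called with both, at 709, 596 and 638 CPM with IL-4 (0.40, adjusted p = 0.000345) and 743, 676 and 658 CPM with IL-13 (0.46, adjusted p = 2.44e-05), and Rpl24 with neither (0.02 and 0.10). Both comparisons use the same 3 controls. Set against each other, IL-13 and IL-4 gave no call in either direction by edgeR (0 higher and 8 lower at an unadjusted p under 0.05) or DESeq2 (0 and 5), with a member median of −0.07, when 0.0865% and 0.0216% of all genes were called higher and lower by edgeR and 0.0324% and 0.0108% by DESeq2. By mean CPM, IL-4 was the highest BMDM group for 47 of the 76 members and IL-13 for 23, a ranking that covers the members alone.

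In RAW264.7 cells LPS for 4 h called 33 of 75 members higher and 0 lower on the TMM scale (median 0.18), when 15.1% of all genes were higher and 12.8% lower. At an unadjusted p under 0.05 the counts were 50 and 0. On library totals 1 member, Rpl7l1, was higher and 0 were lower (9.31% and 21.3% of all genes), with a median of 0.00 beside −0.18 for all genes. DESeq2 called 9 higher and 0 lower (8.02% and 5.02% of all genes), and without the first RAW264.7 control or the first LPS replicate edgeR called 12 or 11. In CPM 26 members lay above both controls and 17 below, beside 21.3% and 48.2% of all genes. No member passed the study's limit of 2 on the log2 scale, beside 3.22% of all genes. With 2 libraries a group, the spread behind these p-values was estimated from few replicates. Rpl7l1 had 311 and 277 CPM in untreated cells and 404 and 382 CPM with LPS, without overlap, and changed by 0.60 (SE 0.0810, adjusted p = 2.56e-12) on the TMM scale and 0.42 on totals. It was also the single member called when the set itself was the scale (0.39; 8.44% of all genes higher and 21.2% lower). Per 100 counts of Rpl7, Rpl7l1 had 19.3 before and 27.8 after LPS. Rplp0 had 1478 and 1536 CPM in untreated cells and 1650 and 1654 CPM with LPS (0.31 and, on totals, 0.13).

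Untreated RAW264.7 cells had more counts than untreated BMDMs in most ribosomal protein genes. Of 76 members 61 were higher and 7 lower on the TMM scale (median 0.88), beside 31.9% and 33.7% of all genes. On totals 64 were higher and 6 lower (median 1.13, all genes 0.18; 37.8% and 27.7% of all genes called), and in CPM 67 lay above all BMDM controls and 6 below, beside 45.6% and 35.1% of all genes. Of the large-subunit genes 38 of 45 were higher (median 0.98) and of the small-subunit genes 23 of 31 (median 0.65); this difference between the subunits was not tested. The limit of 2 on the log2 scale was passed by 5 members and 23.0% of all genes. Line, mouse strain and culture differ together here and cannot be told apart. The 5 markers of dividing cells summed to 968 to 1063 CPM in untreated RAW264.7 cells and 86.7 to 115 CPM in control BMDMs, and the 8 macrophage markers in the files to 11229 to 11283 and 24922 to 26771 CPM, with 1 of them at 0 in RAW264.7. Their part in the difference was not tested.

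Rps3a1, of the small subunit, had 108, 93.0 and 85.0 CPM in BMDMs and 810 and 768 CPM in RAW264.7 cells, the largest rise at 2.80 (SE 0.112, adjusted p = 1.1e-34). Rps27l had 352 and 373 CPM against at most 58.8 in control BMDMs (2.4, SE 0.124), and Rps27a 302 and 302 CPM against 64.8, 55.4 and 51.8 (2.15, SE 0.132). None of these overlapped between the cells. On the other side, Rps14, the gene lost in human 5q- syndrome, had 298, 259 and 268 CPM in BMDMs and 64.3 and 74.0 CPM in RAW264.7 cells (−2.24, SE 0.126, adjusted p = 2.14e-26). Rpl28 fell from 191, 161 and 217 to 57.8 and 66.5 CPM (−1.86, SE 0.176) and Rpl29 from 160, 143 and 137 to 53.2 and 56.2 CPM (−1.67, SE 0.135). These 3 stayed below every BMDM control with LPS as well. Rps4l had 0 counts in all 4 RAW264.7 libraries, which at a limit of 3 counts over the untreated group (0.695 CPM) puts it at least 5.66-fold lower than in control BMDMs. Scaled on the set, 20 members were higher and 23 lower (15% and 55.9% of all genes), so the members' counts also differed between the cells in proportion to each other. Counts of 1 line from another strain may also differ where its sequence differs from the C57BL/6 genome, which was not tested.

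**Figure D5:**
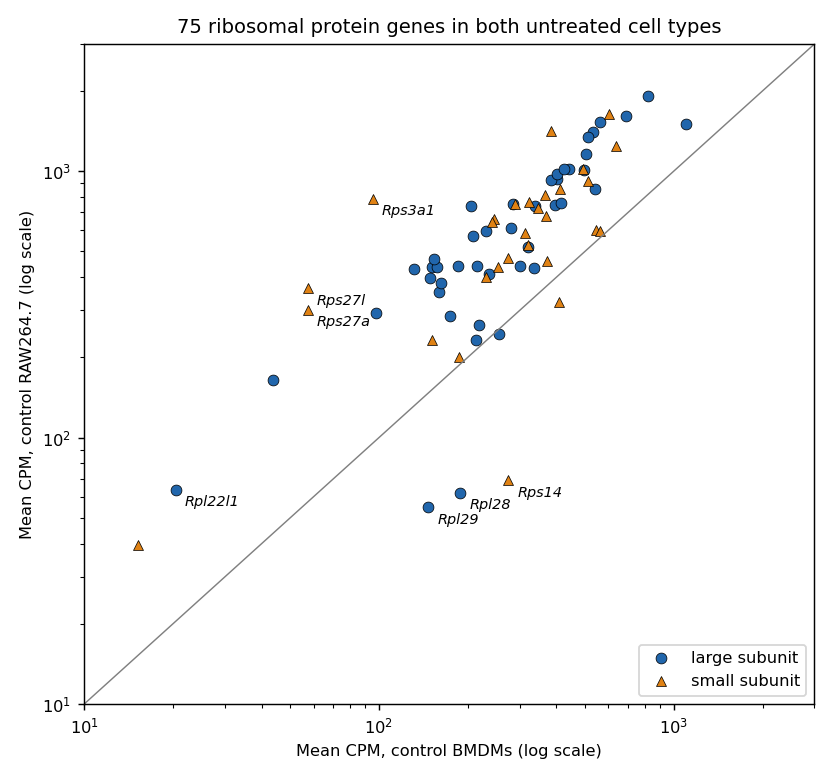
Mean CPM of 75 ribosomal protein genes in untreated RAW264.7 cells (y axis) against control BMDMs (x axis), both on log scales, with large-subunit genes as circles, small-subunit genes as triangles and a line of equal level. Most genes lie above the line, Rps3a1, Rps27l and Rps27a lie farthest above it, and Rps14, Rpl28 and Rpl29 lie below; Rps4l, with no count in RAW264.7, is not drawn.

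Lists of genes related to the ribosome are described beside the shares of all genes called. Of 5 cytosolic ribosomal proteins with other symbols, 4 (among them Rpsa and Gnb2l1) were lower at 12 h than at 4 h on the TMM scale (median −0.48; 19.2% of all genes) and 2 on totals (13.3%), and all 5 were higher in RAW264.7 cells than in BMDMs on both scales (31.9% and 37.8%). Of 15 other mRNAs known to begin with a TOP tract, 9 were lower and 0 higher from 4 h to 12 h on the TMM scale (median −0.42; 19.2% and 16.7% of all genes), and 6 and 0 on totals (13.3% and 25.4%). At 24 h against control 7 were lower and 2 higher on the TMM scale (median −0.27; 21.3% and 23.9% of all genes), and 10 and 0 on totals (30.1% and 16.9%). The elongation factor Eef2, lower from 4 h to 12 h, had 1813 ± 206 CPM at 4 h and 1349 ± 108 CPM at 12 h (−0.65, adjusted p = 6.59e-09). Against control at 4 h, 5 of the 15 were higher and 2 lower on the TMM scale (median 0.25), beside 2486 and 2446 of all 9568 genes. On totals 1 was higher and 5 were lower, beside 1487 and 4641 genes. Among them, the poly(A)-binding protein Pabpc1 was higher (1.21, or 0.68 on totals) and the initiation factor Eif4b lower (−0.83, or −1.37 on totals). With IL-4, 1 of the 15, Eef1g, was called (0.38), beside 4.38% of all genes called higher, and the median of the list was 0.06.

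The mitochondrial ribosomal proteins, 72 of which were tested in the course, build the separate ribosome of mitochondria. From 4 h to 12 h 12 were higher and 0 lower on the TMM scale (median 0.24), the former at the share of all genes (16.7% higher and 19.2% lower), and 24 and 0 on totals (25.4% and 13.3%). At 24 h against control 42 were higher and 0 lower (median 0.63; 23.9% and 21.3% of all genes), and 26 and 0 on totals (16.9% and 30.1%). Mrpl52 rose from 28.6 ± 0.566 to 98.2 ± 11.1 CPM (2.0, adjusted p = 1.01e-16). In RAW264.7 cells 66 of 76 were higher than in BMDMs and 1 lower, and 68 and 1 on totals (median 1.5), beside 31.9% and 33.7% of all genes on the TMM scale and 37.8% and 27.7% on totals. Of 30 genes of ribosome assembly 27 were higher in RAW264.7 cells and 0 lower on both scales (median 2.15 on the TMM scale), beside the same shares of all genes. In the BMDM course 26 of them were tested, and 11 were higher and 1 lower at 24 h on the TMM scale (23.9% and 21.3% of all genes), and 6 and 1 on totals (16.9% and 30.1%). With IL-4 and IL-13 none of 27 was called on the TMM scale, at medians of 0.31 and 0.23 (all genes −0.01 with either). Of all 9252 genes tested, 405 and 519 were called higher there and 301 and 415 lower. On totals 2 of the 27 were higher with IL-13, beside 602 of the 9252 genes.

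Of 17 tested regulators of ribosomal protein synthesis, 5 were higher and 4 lower at 4 h on the TMM scale, near the 26.0% and 25.6% of all genes, and 2 and 9 on totals, near the 15.5% and 48.5%. Larp1, which binds TOP mRNAs, went from 170 ± 9.10 CPM in control to 625 ± 63.7 CPM at 4 h (2.4, adjusted p = 5.75e-27, and 1.87 on totals). Myc, an activator of ribosomal genes, had 13.2 ± 4.58 CPM in control and 40.6 ± 5.06 CPM at 1 h (1.81, adjusted p = 3.96e-09) and was low at 24 h, at 2.20 ± 0.959 CPM (−2.34). It was higher with IL-4, at 26.5 ± 9.15 CPM (1.01 on both scales), and with IL-13, at 32.7 ± 5.76 CPM (1.29 on totals), and these held on both scales. Eif4ebp2, a translation repressor that mTOR inactivates, fell from 49.3 ± 5.85 to 9.84 ± 2.71 CPM at 4 h (−1.81, or −2.34 on totals). In RAW264.7 cells Mycn had 465 ± 6.80 CPM (SD, n = 2) and no count in control BMDMs, whereas Myc had 0.468 ± 0.662 CPM.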

How the data were processed

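Total RNA from the cells was depleted of ribosomal RNA and sequenced as stranded paired-end libraries; the labels call the molecule polyA RNA, which the library protocol does not mention. Per the labels, base calling used CASAVA 1.8.2, trimming Trimmomatic 0.33 and alignment STAR 2.5.1 to mm10. The authors deposited STAR gene counts, whole-number counts of uniquely mapped pairs per gene in 3 columns; the annotation release is not given in the sources used here. The column of sense counts was used, and 4 lines per file that name no gene (76.6 to 80.2% of sense and unassigned reads) and Rn45s were left out.

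Counts were tested with edgeR 4.0.16 in R 4.3.3 (quasi-likelihood, robust, TMM, filterByExpr by group), fitted on all genes of the time course (15 libraries), of control, IL-4 and IL-13 (9), of RAW264.7 (4) or of all 25 libraries for the comparison of untreated cells, with Benjamini-Hochberg adjustment over all genes and a threshold of 0.01. DESeq2 1.42.0 and library totals without TMM were alternatives. The procedure was tested on simulated data with planted rises and falls in about equal number. No shift of the typical gene was simulated, so this test does not bear on the choice of scale. Exon lengths and shared stretches of 100 bases came from GENCODE M21. BMDM libraries are biological triplicates, and those of RAW264.7 biological replicates, per the study's methods and supplement. Named members were those with known roles or paralogs, the 5 highest and 3 lowest in control, and per comparison up to 3 members called with the largest change in each direction, without overlap in CPM and with at least 5 CPM; genes printed for their start sequence or for a change within the set were chosen after their values were seen. The members and lists were chosen with earlier results of these data known. Erythroid markers were at 0 throughout, and T cell markers summed to at most 14.1 CPM, B cell markers to at most 1.92 CPM, dendritic markers to at most 6.09 CPM, neutrophil markers to at most 40.9 CPM, and fibroblast markers to 46.8 to 116 CPM in BMDMs and 0 in RAW264.7. Single-gene values of some members that the rule names are not reported here.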

Additional observations from a re-analysis of the deposited data

Results flagged for a closer look

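Antisense counts of the ribosomal protein genes, which no comparison above uses, were set beside the untreated samples of the same cells. In BMDMs after 12 h of IFN-γ-primed LPS they made up a mean of 0.428% of the counts of both strands, above the control libraries at 0.293 to 0.346%. In RAW264.7 cells with LPS both libraries had 0.162%, above the untreated 0.131% and 0.161% by less than the gap between those. The antisense percentage of Rn45s was higher in the same libraries. It was 0.0827 to 0.122% at 12 h, beside 0.0386 to 0.0543% in control BMDMs. In RAW264.7 cells it was 0.0249 to 0.0283% with LPS and 0.0199 to 0.0236% untreated. Neither difference was thus particular to the set, and their source was not tested.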

How the results depend on the processing

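Direction depended most on the scale. With library totals alone, members higher and lower numbered 0 and 1 at 1 h, 2 and 19 at 4 h, 2 and 50 at 12 h and 4 and 22 at 24 h against control, 1 and 10 from 1 to 4 h, 19 lower from 4 to 12 h, 12 and 0 from 12 to 24 h, and 1 higher with LPS in RAW264.7 cells. The log2 change at 4 h against control then turned negative in Rpl11 (−0.26), Rpl39 (−0.15), Rpl7 (−0.10), Rpl7l1 (−0.02), Rplp0 (−0.02), Rplp1 (−0.09), Rplp2 (−0.14), Rps19 (−0.24), Rps3 (−0.20) and Rps6 (−0.11), and from 1 to 4 h in Rplp1 (−0.03). Scaled on the set itself, which was chosen after seeing the data, higher and lower members numbered 0 and 0 at 1 h, 4 and 3 at 4 h and 6 lower at 12 h against control, 1 and 1 from 1 to 4 h, 2 and 2 from 4 to 12 h, 0 higher from 12 to 24 h, 0 higher with IL-4 or IL-13, 1 higher with LPS in RAW264.7 and 20 and 23 between the cells. The sign then turned for Rpl11 (−0.07), Rps19 (−0.06) and Rps3 (−0.02) at 4 h, for Rpl11 (0.11), Rplp2 (0.07), Rps3 (0.01) and Rps6 (0.04) from 4 to 12 h, and for Rplp2 (−0.39) and Rps19 (−0.22) between the cells. These follow from the scales' construction.

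A filter of 10 counts in every sample kept 75 members among 6458 genes in the course. It gave 5 members higher at 1 h, 22 at 4 h and 3 at 12 h, beside 991, 1683 and 1571 of all genes. The member median at 4 h was then 0.21, and members were called higher at close to the share of all genes. At 12 h 20 members were lower, beside 1622 genes. At 24 h 6 members were higher and 13 lower, beside 1554 and 1528 genes, and the member median was −0.03. From 1 to 4 h 6 were higher and from 12 to 24 h 5, beside 1330 and 464 genes. The cause was not tested. Fitting all 25 samples together gave 17 higher at 1 h, beside 1556 of 10612 genes. DESeq2 gave 1 higher and 0 lower from 12 to 24 h and 9 higher with LPS in RAW264.7. No filter and the replicate block each left 0 lower from 12 to 24 h. Same-numbered samples were not paired (correlation of deviations −0.0724 to 0.171 in the course, at most 0.0928 with IL-4 and IL-13), and the block changed no other count by over 1.5 times.

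With 1 replicate left out, the counts higher against control were 5 to 10 (1 h), 36 to 50 (4 h), 4 to 8 (12 h) and 7 to 15 (24 h). They were 5 to 14 from 1 to 4 h, 1 to 4 from 12 to 24 h, 2 to 15 with IL-4, 3 to 15 with IL-13, 11 to 31 with LPS in RAW264.7 and 58 to 61 between the cells. Counts lower were 6 to 13 (12 h) and 4 to 6 (24 h) against control, 46 to 58 from 4 to 12 h, 6 to 7 between the cells and 0 to 0 elsewhere. Group mean shares ranged over 2.39 to 2.49% (control), 2.43 to 2.48% (1 h), 2.15 to 2.25% (4 h), 1.85 to 1.99% (12 h), 2.15 to 2.27% (24 h), 2.90 to 2.95% (IL-4), 2.78 to 2.96% (IL-13), 5.16 to 5.21% (RAW264.7) and 5.17 to 5.36% (with LPS).

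With Rn45s in the total, the mean shares were, in the same order, 1.55, 1.69, 1.48, 1.35, 1.57, 1.85, 1.87, 4.01 and 4.13%, and without the 50 most counted genes 4.04, 3.76, 3.42, 2.88, 3.47, 4.66, 4.41, 7.28 and 7.60%. Over 101 pairs of a named gene and a comparison, 1319 of 1540 alternative values kept direction and call, 201 lost the call and 20 turned sign. The changes of scale moved the most values. Library totals kept 60 of the 101, lost the call in 30 and turned the sign in 11. Scaling on the set itself kept 37, lost the call in 55 and turned the sign in 9. At 1502618 to 2532496 counts a library, the 7 untested members had too few counts for a test.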
